A study of Mus musculus with 6 samples.

Results

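The *Prame* family genes of mouse embryonic stem cells (mESC) were taken as every gene of the deposited tables whose symbol begins with *Pramel* or *Pramef*, or is *Prame*. Of 22380 gene identifiers in each table, 34 were members, 13 by their GENCODE M21 symbol and 21 more by their RefSeq symbol only. RefSeq names are used here, with the GENCODE name in brackets at first use where it differs. Of these 34 genes, 19 were above 0 in at least 1 library. A further 14 annotated members were not analysed here.

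RNA-Seq libraries were made from 3 *Ctrl* and 3 *Tet iTKO* mESC lines, and every line came from its own embryo. The *Ctrl* lines carried *Cre-ERT2*, a tamoxifen-inducible recombinase driven everywhere by the ubiquitin C promoter, and *Rosa26-H2B-LSL-Egfp*, a reporter that Cre switches on. The *Tet iTKO* lines carried both of these and floxed alleles of *Tet1*, *Tet2* and *Tet3*, which encode the dioxygenases that oxidize 5-methylcytosine. All lines were grown in 2i medium (CHIR99021 and PD0325901) with LIF on mouse embryonic fibroblast feeders. They were exposed to 1 µM 4-hydroxytamoxifen (tamoxifen in the sample titles) for 2.5 days and were cultured for 4 more days. Living cells positive for the reporter and for CD326 (EpCAM) and negative for Thy1.2 were sorted at day 6.5. The comparison asks how acute loss of all 3 TET proteins changed expression, and both groups had Cre activity and the drug. The groups were different lines from different matings, and no untreated library was analysed here. Differences present before the drug therefore cannot be told apart from effects of TET loss.

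PRAME family proteins are built of leucine-rich repeats, and several act as substrate receptors that bring a target to a cullin 2 (CUL2) ubiquitin ligase. The genes are named for human *PRAME*, a tumour antigen that also binds retinoic acid receptors, and in the mouse they form large clusters of recent duplicates that are mostly silent in somatic tissue. Many are used in germ cells, oocytes and early embryos. *Pramel7* is active in the inner cell mass, responds to LIF and STAT3, and its protein directs the breakdown of UHRF1, the factor that guides the maintenance methyltransferase DNMT1. *Pramel6* lies beside it and is likewise known from mESC and the early embryo.

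Values are normalized counts, which the authors divided by a size factor per library and rounded to whole numbers. They summed to 3964824 to 4219665 per library, from an estimated 3.67 M to 5.1 M counted reads, and 13431 to 13539 genes were above 0 in *Ctrl* against 14024 to 14363 in *Tet iTKO* mESC. At this depth a value of 3 was set as the floor, so a member listed at 0 may still be transcribed below it. The authors' counting used a strand option although Smart-Seq2 libraries do not mark strand, so reads may have been left uncounted, which was not tested. Whole-gene values of *Tet1* and *Tet2* include exons outside the deletion and do not check it. The mESC markers *Pou5f1*, *Nanog*, *Sox2*, *Esrrb*, *Klf4* and *Zfp42* were present in every library. They summed to 9908 to 10413 in *Ctrl* and 8893 to 9431 in *Tet iTKO* mESC. By the test, 3 were lower, *Pou5f1*, *Nanog* and *Zfp42* (log2 fold changes of −0.29, −0.3 and −0.35). The 2 higher were *Esrrb* (0.29) and *Klf4* (0.32), and *Sox2* (−0.05) was not called. The 8 feeder fibroblast markers summed to 325 to 336 in *Ctrl* and 518 to 594 in *Tet iTKO* mESC, none was at 0 in all libraries, and *Col1a1*, *Col1a2* and *Col3a1* were the 3 that passed the test, all higher in *Tet iTKO*. The other tested markers, *Acta2* and the sort marker gene *Thy1*, were not called (limma adjusted p = 0.79 and 0.69). *Acta2* had 46, 45 and 56 in *Ctrl* against 50, 44 and 42 in *Tet iTKO* mESC, and *Thy1* had 30, 46 and 41 against 47, 35 and 23. Too low to test were *Lum* (2, 8 and 1 against 2, 2 and 1), *Dcn* (2, 3 and 15 against 1, 2 and 6) and *Postn* (0, 0 and 1 against 1, 3 and 0). The markers therefore did not rise together. The part of feeder RNA in the values below was not tested.

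The sequences before the annotated start are shown for 5 members that were called higher in *Tet iTKO* mESC, for *Pramel11*, whose start resembles that of *Pramel24* and which was not called, and for *Pramel13*, whose groups overlapped. *Pramel19* and *Pramel45* are not shown, because their annotated start is a start codon. They are the 250 bases upstream of the RefSeq start on GRCm38.p6, 5′ to 3′ on the gene's strand, with each CpG, the dinucleotide that carries most DNA methylation, in capitals. In order they lie at chr4:143567217-143567466 (plus strand), chr4:144357714-144357963 (plus), chr4:143719201-143719450 (plus), chr4:143900381-143900630 (minus), chr4:143951017-143951266 (minus), chr2:87506315-87506564 (plus) and chr4:144408465-144408714 (minus).
Pramel20: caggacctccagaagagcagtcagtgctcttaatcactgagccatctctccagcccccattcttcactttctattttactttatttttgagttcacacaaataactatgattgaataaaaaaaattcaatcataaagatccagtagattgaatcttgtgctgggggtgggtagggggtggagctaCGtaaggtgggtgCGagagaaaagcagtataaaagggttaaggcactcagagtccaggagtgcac
Pramel31: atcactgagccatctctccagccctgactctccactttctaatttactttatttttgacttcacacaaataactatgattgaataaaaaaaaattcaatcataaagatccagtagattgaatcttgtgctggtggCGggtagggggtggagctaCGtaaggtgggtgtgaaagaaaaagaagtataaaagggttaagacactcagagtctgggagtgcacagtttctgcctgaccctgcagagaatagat
Pramel24: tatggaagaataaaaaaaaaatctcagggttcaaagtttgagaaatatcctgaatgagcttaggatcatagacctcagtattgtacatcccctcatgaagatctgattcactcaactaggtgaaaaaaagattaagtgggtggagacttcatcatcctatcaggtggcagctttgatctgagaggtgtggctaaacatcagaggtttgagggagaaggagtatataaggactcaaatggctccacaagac
Pramel11: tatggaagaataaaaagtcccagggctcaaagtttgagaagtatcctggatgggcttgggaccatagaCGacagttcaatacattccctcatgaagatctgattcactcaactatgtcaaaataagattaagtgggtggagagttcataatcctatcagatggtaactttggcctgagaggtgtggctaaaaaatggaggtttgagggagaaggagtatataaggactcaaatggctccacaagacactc
Pramel16: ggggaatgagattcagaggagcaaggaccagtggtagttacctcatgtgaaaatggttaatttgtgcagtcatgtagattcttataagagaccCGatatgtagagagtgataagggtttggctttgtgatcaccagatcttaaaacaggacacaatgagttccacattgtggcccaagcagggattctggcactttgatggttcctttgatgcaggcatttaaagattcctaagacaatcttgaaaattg
Pramel6: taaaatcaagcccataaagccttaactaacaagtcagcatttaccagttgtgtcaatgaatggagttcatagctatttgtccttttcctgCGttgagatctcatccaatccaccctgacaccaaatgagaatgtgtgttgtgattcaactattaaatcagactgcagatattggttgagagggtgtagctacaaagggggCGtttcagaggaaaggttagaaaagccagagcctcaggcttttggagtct
Pramel13: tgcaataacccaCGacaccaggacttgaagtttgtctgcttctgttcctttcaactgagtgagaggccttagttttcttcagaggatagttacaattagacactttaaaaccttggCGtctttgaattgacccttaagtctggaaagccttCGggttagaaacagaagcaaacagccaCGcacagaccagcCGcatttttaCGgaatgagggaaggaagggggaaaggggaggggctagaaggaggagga

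CpG were few in these sequences. Of the 34 members, 29 had a window in the RefSeq table, covering 250 bases before to 50 after the start, and *Pramel12*, *Pramel34*, *Pramel41*, *Pramel47* and *Pramel51* had none. The 29 windows held a median of 2 CpG, against 7 over all 32851 windows of the table, and 24 of the 29 held 3 or fewer, as did 31.4% of all windows. The 8 members with higher values in every *Tet iTKO* library than in any *Ctrl* library held 0 to 3 CpG, and the 12 members listed at 0 throughout that had a window held 0 to 9. Low CpG number was therefore shared by members that differed between the groups and by members listed at 0, which need not be silent. The most CpG, 20, lay at *Pramel1*, and *Pramel13* held 7. For 7 of the 29 (*Pramel7*, *Pramel14*, *Pramel15*, *Pramel19*, *Pramel21*, *Pramel30* and *Pramel45*), the annotated start is an ATG, so the window precedes the start codon and may not be the promoter.

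**Figure D1:**
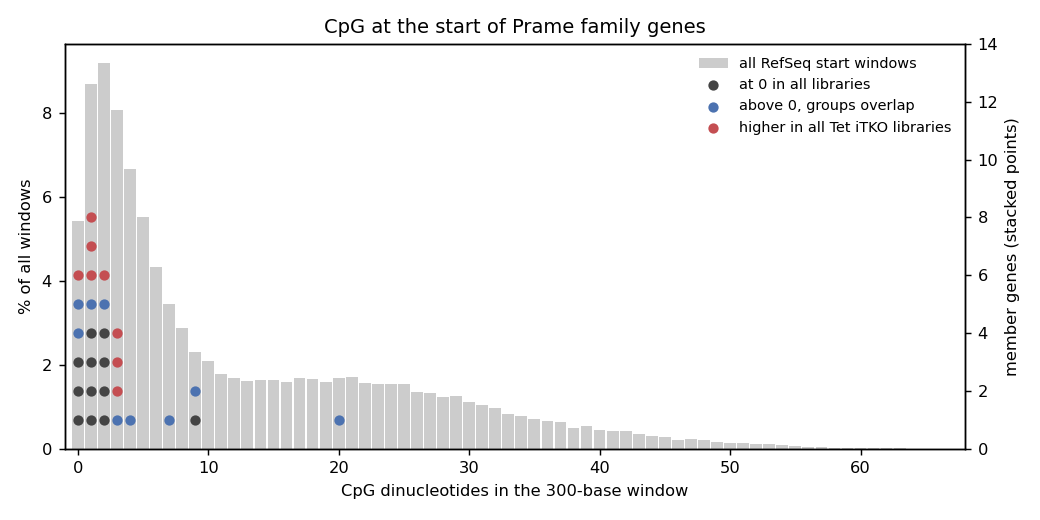
Number of CpG dinucleotides (x axis) in the 300-base window around the annotated start, as the share of all 32851 RefSeq windows in grey bars (left axis, %) and as 1 stacked point for each of 29 *Prame* family genes (right axis). Red points, the 8 genes higher in every *Tet iTKO* library, lie at 0 to 3 CpG, where most genes at 0 in all libraries (black) also lie.

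Some starts were near copies of each other. Among 406 pairs of members, the longest run of identical bases in the 250 upstream bases had a median of 8 and reached 30 or more in 5 pairs. *Pramel20* and *Pramel31* shared a run of 47 bases, from −134 to −88 before the *Pramel20* start and from −165 to −119 before that of *Pramel31*, and *Pramel11* and *Pramel24* shared 50 bases that end at −5 and −1. The longest runs, 118 bases in *Pramel14* and *Pramel30* and 111 in *Pramel4* and *Pramel5*, belonged to genes never above 1. The letters TATAAA, searched on both strands, were in 7 of 29 windows and in 13.6% of all windows. They began at −38 in *Pramel20* and at −68 in *Pramel31*. The STAT-type motif TTCNNNGAA was in 0 of 29 windows, that of *Pramel7* included, and in 8.3% of all windows.

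Between the groups, *Pramel12* was the most abundant member in every library, and the other members were a larger share of the family in *Tet iTKO* mESC. *Pramel12*, named *Pramef8* in GENCODE, supplied 87.2% to 88.1% of the summed family value in the 3 *Ctrl* libraries and 44.1% to 56.8% in the 3 *Tet iTKO* libraries, and its own value did not differ detectably. The other 33 members summed to 17, 18 and 26 in *Ctrl* against 136, 119 and 146 in *Tet iTKO* mESC, a ratio of 6.57. The number of members above 0 was 9, 8 and 10 in *Ctrl* against 15, 15 and 16 in *Tet iTKO* mESC. Above the floor of 3, it was 2, 3 and 3 against 12, 10 and 10. Over all genes, the number above 0 was also larger, at 13431 to 13539 in *Ctrl* against 14024 to 14363 in *Tet iTKO* mESC. These are bulk libraries, in which a change in the number of cells that express a gene and a change in RNA per cell cannot be told apart.

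*Pramel12* had normalized counts of 116, 133 and 179 in *Ctrl* against 179, 94 and 129 in *Tet iTKO* mESC. Highest and lowest values of the groups interleaved. Its log2 fold change was -0.11 ± 0.19 (SE, n = 3 per group, limma adjusted p = 0.67), and the sign turned when *Ctrl* line 3 (0.06) or *Tet iTKO* line 2 (0.11) was left out. Per kilobase of transcript it was the most abundant member in both groups, at 36.7 in *Ctrl* and 34.5 in *Tet iTKO* mESC. None of its 50-base windows occurred in another gene.

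The sum over all 34 members was 133, 151 and 205 in *Ctrl* against 315, 213 and 275 in *Tet iTKO* mESC. Every *Tet iTKO* library lay above every *Ctrl* library, and the difference in log2 of the sum was 0.72 (exact permutation test over libraries, two-sided, p = 0.1, the smallest that 3 against 3 allows). Without *Pramel12*, the means were 20.3 ± 4.9 and 134 ± 13.7 (SD, n = 3) and the log2 difference was 2.68 (exact permutation p = 0.1). With *Pramel20* also left out, the ratio was 6.04. The sum depends on which names count as members. The 13 genes with a family symbol in GENCODE M21 gave a log2 difference of 0.24 (exact permutation p = 0.5), or 1.91 without *Pramel12* (exact permutation p = 0.1). The 21 genes with such a symbol in RefSeq only summed to 6, 7 and 9 in *Ctrl* against 80, 76 and 92 in *Tet iTKO* mESC (exact permutation p = 0.1).

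**Figure D2:**
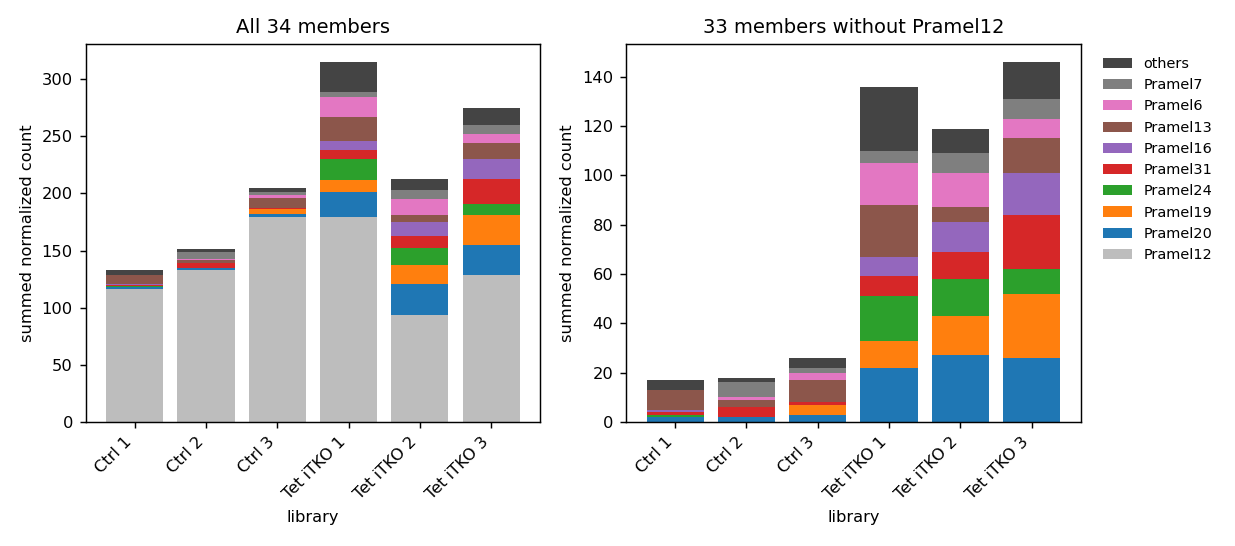
Summed normalized counts (y axis) of all 34 *Prame* family genes (left) and of the 33 without *Pramel12* (right) in each of the 6 libraries, with 1 colour for each leading gene. *Pramel12* fills most of the *Ctrl* bars, and the bars without it reach 17 to 26 in *Ctrl* and 119 to 146 in *Tet iTKO* mESC.

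By the test on genes with a mean of at least 10, only 3 members had enough reads, and 1 rose and 0 fell, while 16.4% of all 10524 genes tested were called higher and 18.4% lower. The gene that rose, *Pramel20*, reached this mean only through its *Tet iTKO* values, so the count is a description and not support. *Pramel20* (*BC080695*, ENSMUSG00000070618) had 2, 2 and 3 in *Ctrl* against 22, 27 and 26 in *Tet iTKO* mESC. The groups were far apart for their spread, with means of 2.33 ± 0.577 and 25 ± 2.65 (SD, n = 3). The log2 fold change on log2(value + 1) was 2.97 ± 0.62 (SE, limma adjusted p = 0.00025), and it was called with any 1 library left out. *Pramel13* (*Pramef12*), a gene known from early spermatogenic cells, had 8, 3 and 9 in *Ctrl* against 21, 6 and 14 in *Tet iTKO* mESC. *Tet iTKO* line 2 lay inside the *Ctrl* range, and the difference of 0.89 ± 0.64 did not pass (limma adjusted p = 0.3). The antisense gene *Pramef12os*, not analysed here, overlaps *Pramel13*, and Smart-Seq2 libraries do not tell the strands apart.

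The members with a mean under 10 were compared in the same model fitted to all 16064 genes above 0 in any library, in which 9.85% were called higher and 10.1% lower, and 5.34% of the genes with a mean under 10 were called higher. Of the 19 members in that fit, 7 were called higher and 0 lower. Members listed at 0 in every *Ctrl* library, *Pramel45* among them, entered this fit only through their *Tet iTKO* values. With the groups compared by range alone, 8 of the 34 members lay higher in every *Tet iTKO* library and 0 lay lower, against 12.4% and 11.2% of all 22380 identifiers. *Pramel20* is in both counts. Among all genes with a mean above 0 and under 10, the shares by range were 9.87% higher and 1.9% lower.

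*Pramel24* (*Gm13078*, ENSMUSG00000046435) had 1, 0 and 0 in *Ctrl* against 18, 15 and 10 in *Tet iTKO* mESC. The sums of 1 and 43 give a ratio of 43, with a 95% interval of 7.32 to 1737 that covers counting error only and takes the values as counts. *Pramel16* (*Pramef25*, ENSMUSG00000078511) had 1, 0 and 0 against 8, 12 and 17, a ratio of 37 (6.24 to 1500). Both genes were close to silent in *Ctrl* mESC and present in every *Tet iTKO* library, with limma adjusted p of 0.0014 and 0.0022, and both were called with any 1 library left out.

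*Pramel6*, with values of 0, 1 and 3 in *Ctrl* against 17, 14 and 8 in *Tet iTKO* mESC, was higher in all 3 *Tet iTKO* libraries. Its log2 fold change was 2.75 ± 0.63 (SE, limma adjusted p = 0.012). *Pramel19* (*Gm12794*) had 0, 0 and 4 against 11, 16 and 26, a change of 3.37 ± 0.72 (limma adjusted p = 0.0083). *Pramel31* (*Gm13119*) had 1, 4 and 1 against 8, 11 and 22, a change of 2.32 ± 0.61 (limma adjusted p = 0.023). The groups of these 3 genes did not overlap, but their calls were less secure than those of *Pramel20*, *Pramel24* and *Pramel16*. The call was lost without *Ctrl* line 1 or 2 or *Tet iTKO* line 1 or 2 for *Pramel6*, without any library but *Ctrl* line 3 for *Pramel19*, and without any library but *Ctrl* line 2 for *Pramel31*, at adjusted p up to 0.096.

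*Pramel45* (*Gm7942*) was listed at 0 in all *Ctrl* libraries and had 4, 1 and 2 in *Tet iTKO* mESC (limma adjusted p = 0.032). It stayed called only without *Tet iTKO* line 2. *Pramel11* (*Pramef6*) was likewise listed at 0 in *Ctrl* and had 1, 1 and 3 in *Tet iTKO* mESC (limma adjusted p = 0.058). Both sets of values are at or near the floor of 3, so only presence in each *Tet iTKO* library can be read from them.

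**Figure D3:**
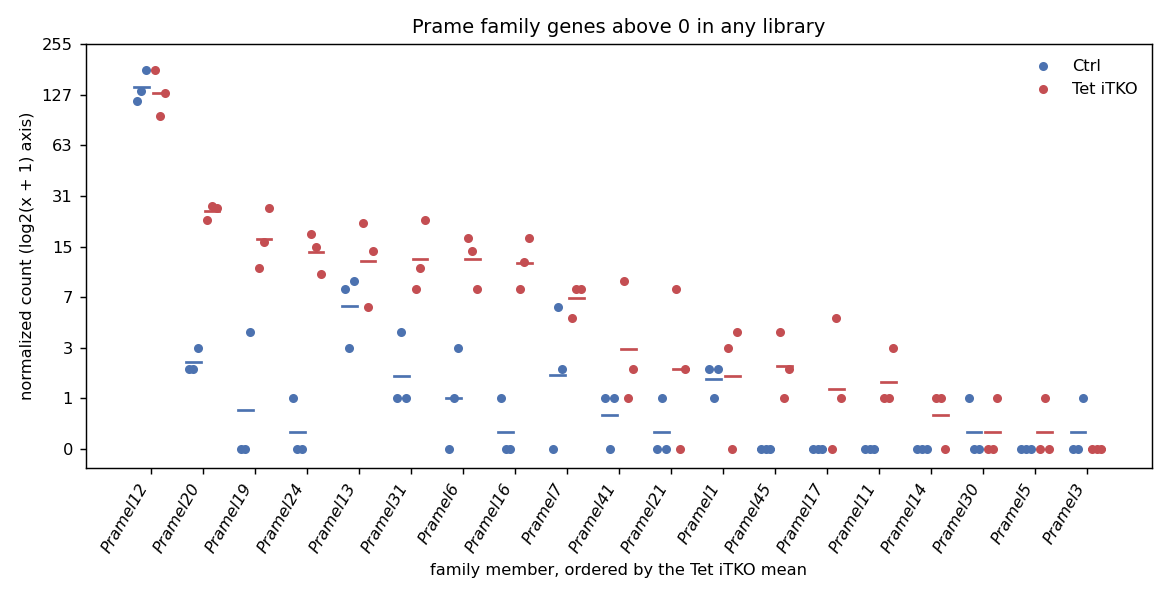
Normalized count (log2(x + 1) axis) of the 19 *Prame* family genes above 0 in any library, with 1 point per library and a line at the mean of the log2 values of each group (*Ctrl* blue, *Tet iTKO* red, n = 3 each). *Pramel12* overlaps between the groups at 94 to 179, while *Pramel20*, *Pramel24*, *Pramel16*, *Pramel19*, *Pramel31* and *Pramel6* do not overlap.

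*Pramel7*, the other marker gene of the family beside *Pramel6*, had 0, 6 and 2 in *Ctrl* against 5, 8 and 8 in *Tet iTKO* mESC, and *Ctrl* line 2 lay within the *Tet iTKO* range. Its change of 1.51 ± 0.71 did not pass (limma adjusted p = 0.17), and it ran from 0.78 without *Ctrl* line 1 to 2.18 without *Ctrl* line 2. The log2 ratio of *Pramel6* to *Pramel7* was 0.0, −1.81 and 0.42 in *Ctrl* against 1.58, 0.74 and 0.0 in *Tet iTKO* mESC, and the groups overlapped (difference 1.24, exact permutation test, two-sided, p = 0.3, where 3 against 3 cannot go below 0.1). The 0.0 of *Ctrl* line 1 is set by the pseudocount, since both genes were listed at 0 there. Together they gave 0, 7 and 5 in *Ctrl* against 22, 22 and 16 in *Tet iTKO* mESC (ratio 5).

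Other members showed single high libraries. *Pramel21* (*Gm13083*) had 0, 1 and 0 against 8, 0 and 2, and *Pramel41* (*Gm7682*) had 1, 0 and 1 against 9, 1 and 2, so that *Tet iTKO* line 1 held most of both. *Pramel17* (*B020004J07Rik*) was listed at 0 in *Ctrl* and had 0, 5 and 1 in *Tet iTKO* mESC. *Pramel1* had 2, 1 and 2 against 3, 0 and 4. None of these 4 passed the test (limma adjusted p = 0.2 to 0.98). *Pramel3*, *Pramel5*, *Pramel14* (*Pramef17*) and *Pramel30* (*Gm13128*) were never above 1. *Prame* itself, *Pramel4*, *Pramel15*, *Pramel22*, *Pramel23*, *Pramel25*, *Pramel26*, *Pramel27*, *Pramel29*, *Pramel32*, *Pramel34*, *Pramel37*, *Pramel47*, *Pramel48* and *Pramel51* were listed at 0 in all 6 libraries.

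By place in the genome, the main cluster on chromosome 4 holds 20 of the members, from *Pramel1* to *Pramel13*. Its sum was 132, 144 and 194 in *Ctrl* against 269, 168 and 228 in *Tet iTKO* mESC and overlapped between the groups (exact permutation p = 0.2). Without *Pramel12* the sum was 16, 11 and 15 in *Ctrl* against 90, 74 and 99 in *Tet iTKO* mESC (ratio 6.26). Within it, genes at 0 in all libraries lay between genes that differed. In the order of the members analysed, *Pramel12*, which did not differ detectably, stands beside *Pramel20*. A smaller group on chromosome 4, *Pramel17* and *Pramel19*, gave 0, 0 and 4 against 11, 21 and 27. The 6 members on chromosome 5 gave 1, 0 and 1 against 13, 2 and 4, of which *Tet iTKO* line 1 held most. These 3 sums, that of the main cluster without *Pramel12* included, and that of the chromosome 2 pair, *Pramel6* and *Pramel7*, did not overlap between the groups (exact permutation p = 0.1 for each). The X-linked *Prame* and *Pramel3* together had 1 in 1 *Ctrl* library and 0 elsewhere.

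**Figure D4:**
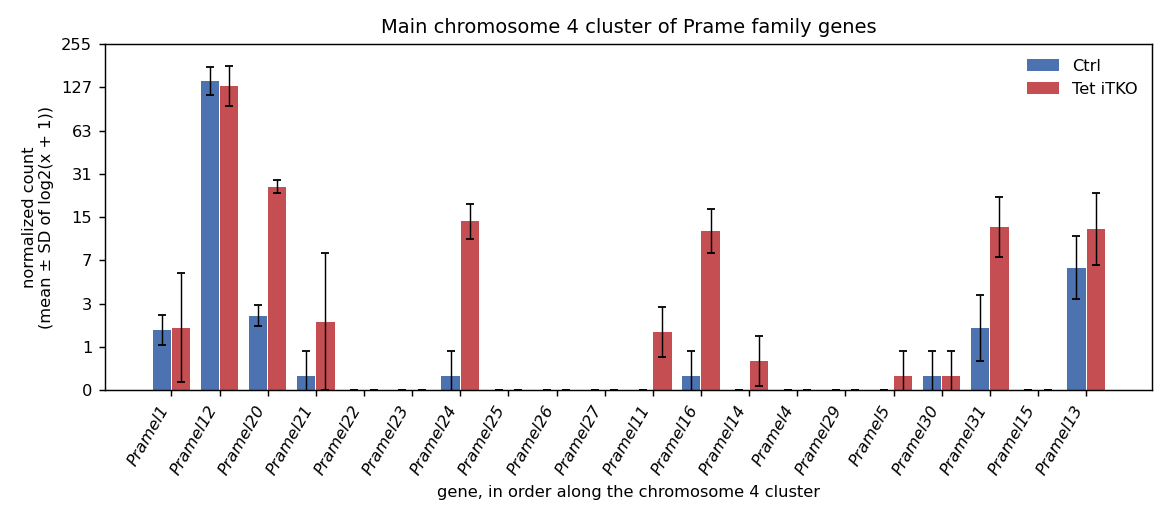
Normalized counts (mean ± SD of log2(x + 1), n = 3 libraries per group) of the 20 members of the main chromosome 4 cluster in their order along the chromosome, *Ctrl* in blue and *Tet iTKO* in red. *Pramel20*, *Pramel24*, *Pramel16* and *Pramel31* stand out in *Tet iTKO* mESC between genes at 0, and *Pramel12* is level in the 2 groups within its spread.

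Compared per kilobase of transcript, the *Tet iTKO* levels were 12.2 for *Pramel19*, 11.9 for *Pramel20*, 7.32 for *Pramel16*, 7.3 for *Pramel6*, 6.81 for *Pramel24* and 6.53 for *Pramel31*. The last 4 lie closer together than the spread of each over its libraries. In *Ctrl* mESC, *Pramel13* followed *Pramel12* at 2.71 per kilobase, and no other member passed 1.5.

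Because family members are near copies, reads that fit several of them are missing under the authors' unique alignment. The share of 50-base windows of a transcript that also occur in another gene was 55.3% for *Pramel20*, 63.5% for *Pramel16*, 47.3% for *Pramel19*, 38.6% for *Pramel31* and 14.8% for *Pramel24*, but 0 for *Pramel6*, *Pramel12*, *Pramel13* and *Pramel1*, and 0.442% for *Pramel7*. It was also 83.1% for *Pramel45*, 84.9% for *Pramel41*, 35.2% for *Pramel11*, 25.9% for *Pramel21* and 13.4% for *Pramel17*. Among the members listed at 0 in all libraries, it ran from 0 for *Pramel15* to 92.8% for *Pramel4* and 100% for *Pramel37*. A 0 can therefore also come from reads that fit several genes. Levels of the members with a share of 1% or more are therefore uncertain. The groups also did not overlap without them. The 7 members with under 1% of shared windows, *Pramel12* left out, summed to 10, 11 and 16 in *Ctrl* against 46, 28 and 34 in *Tet iTKO* mESC (ratio 2.92, exact permutation p = 0.1). For the 26 members with more, the sums were 7, 7 and 10 against 90, 91 and 112 (ratio 12.2). A same-strand gene, *Gm13057*, overlaps *Pramel20* in GENCODE M21 and was not analysed here.

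The genes around the family's known roles were mixed. Of 12 genes for DNA methylation and for the core CUL2 ligase, all tested, 5 were higher and 5 lower, against 16.4% and 18.4% of all genes tested, with a median log2 fold change of −0.05 against 0.01 over all genes tested. A correction for GC content and length left 2 higher and 4 lower, and the fit without the trend left 0 and 3. *Rbx1*, the RING subunit of cullin ligases, had 817, 785 and 691 in *Ctrl* against 397, 428 and 358 in *Tet iTKO* mESC and fell by 0.95 on the log2 scale (limma adjusted p = 5.4e-11). *Eloc*, an adaptor of CUL2, fell by 0.56 (limma adjusted p = 0.00013), but its change of −0.21 with that correction did not pass (adjusted p = 0.17). *Cul2* itself had 508, 575 and 571 against 551, 437 and 438 and did not pass (limma adjusted p = 0.06).

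*Uhrf1*, whose protein is the target of PRAMEL7, had 2465, 2325 and 2533 in *Ctrl* against 2186, 2191 and 2231 in *Tet iTKO* mESC. It fell by 0.15 on the log2 scale (limma adjusted p = 0.025), and by 0.36 after correction for GC content and length (adjusted p = 1.5e-06), while its change under quantile normalization was −0.02 (adjusted p = 0.82). *Dnmt1* had 1178, 1117 and 1072 against 1254, 1273 and 1370, a change of 0.21 (limma adjusted p = 0.0088) that turned to −0.18 after correction for GC content and length (adjusted p = 0.032). *Dnmt3l*, the catalytically inactive partner of the de novo enzymes, fell by 0.49 (limma adjusted p = 3.8e-06), and the methyltransferase gene *Dnmt3b* rose by 0.24 (limma adjusted p = 0.0003), which was 0 after the same correction.

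Among 11 genes of other CUL2 substrate receptors, which share the ligase with PRAME proteins, 1 was higher and 1 lower. After correction for GC content and length, 0 were higher and 2 lower. These were *Fem1a* (−0.61, adjusted p = 0.0052) and *Zer1* (−0.59, adjusted p = 0.031), neither of them called in the main fit. *Klhdc2* had 315, 254 and 279 in *Ctrl* against 240, 184 and 207 in *Tet iTKO* mESC and fell by 0.43 on the log2 scale (limma adjusted p = 0.006), but its change of −0.27 after correction for GC content and length did not pass (adjusted p = 0.091). *Klhdc3* rose by 0.18 (limma adjusted p = 0.037), which turned to −0.03 after correction for GC content and length (adjusted p = 0.77). *Vhl* (−0.21) and *Appbp2* (0.11) did not pass. Over all genes tested, 34.8% were called in either direction.

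In the retinoic acid pathway, 5 of the 11 tested genes rose and 0 fell, against 16.4% and 18.4% of all genes tested, with a median log2 fold change of 0.38. After correction for GC content and length, 3 were higher and 1 lower. The receptor gene *Rarg* had 714, 772 and 740 in *Ctrl* against 1165, 1105 and 1138 in *Tet iTKO* mESC and rose by 0.61 (limma adjusted p = 3.9e-09), or by 0.2 after that correction (adjusted p = 0.02). *Rara* rose by 0.48 (limma adjusted p = 7.3e-05), but by 0 after correction for GC content and length. *Aldh1a2*, which makes retinoic acid, went from 5, 4 and 7 to 32, 34 and 23, a rise of 2.28 (limma adjusted p = 0.00059). Its *Ctrl* mean of 5.33 was under 10, so it entered the test only through its *Tet iTKO* values. Its place among the 5 is therefore a description and not support. *Crabp2*, a carrier of retinoic acid, rose by 0.85 (limma adjusted p = 0.0021).

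Of 9 tested genes for LIF and STAT3 signalling, the input known for *Pramel7*, 2 were higher and 2 lower. This is near the 16.4% and 18.4% of all genes tested. With the correction for GC content and length, 1 was higher and 3 lower, and the fit without the trend gave 1 and 1. *Socs3*, a feedback inhibitor and target of STAT3, had 706, 713 and 700 in *Ctrl* against 480, 489 and 592 in *Tet iTKO* mESC and fell by 0.45 (limma adjusted p = 5.7e-05). *Stat3* fell by 0.37 (limma adjusted p = 0.0031), and the kinase gene *Pim1* rose by 1.21 (limma adjusted p = 0.00017). *Klf4*, another target, rose by 0.32 (limma adjusted p = 0.0032), but not after correction for GC content and length (0.12, adjusted p = 0.34).

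Genes of the 2-cell-like state, a rare state of mESC cultures that resembles the early embryo, were called in 1 direction. All 7 tested of 13 in the tables were higher in *Tet iTKO* mESC. Each had a *Ctrl* mean under 10 and entered the test only through its *Tet iTKO* values. Neither this count nor the median log2 fold change of 3.45 is therefore support. Without the filter, 10 of the 13 were called higher and 0 lower, against 9.85% and 10.1% of all genes in that fit. *Tdpoz4*, listed at 0 in all libraries, was not in that fit. *Usp17ld* and *Tdpoz3*, listed at 0 in every *Ctrl* library, entered it only through their *Tet iTKO* values, so this count is a description too. *Usp17le* had 0, 2 and 1 in *Ctrl* against 82, 66 and 71 in *Tet iTKO* mESC (5.34 ± 0.57, limma adjusted p = 2.2e-09). *Zscan4d* had 6, 16 and 5 against 56, 54 and 70 (2.76 ± 0.42, limma adjusted p = 1.9e-06), and *Usp17lb* and *Usp17la* rose by 3.45 and 4.25. Of the genes below the filter, *Tmem92* had 0, 1 and 2 against 23, 18 and 15 and *Sp110* had 1, 0 and 0 against 15, 7 and 4, while *Zfp352* stayed under the floor of 3 in all libraries. Several of these genes, such as the *Usp17l* and *Zscan4* genes, belong to families of similar copies, whose shared sequence was not measured here. Whether the same cells express the genes of this list and the *Prame* family cannot be read from bulk RNA.

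**Figure D5:**
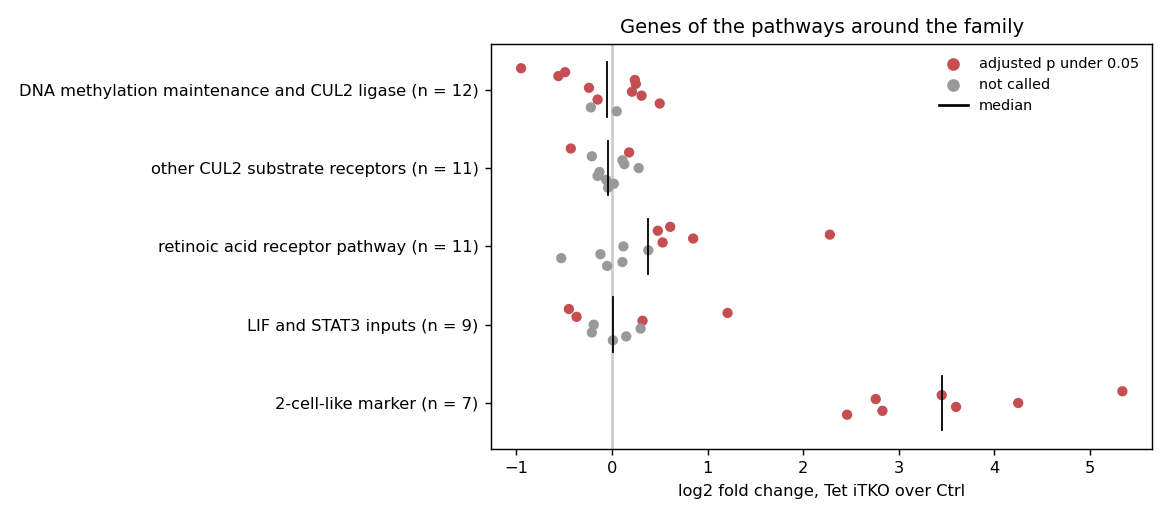
Log2 fold change of *Tet iTKO* over *Ctrl* mESC (x axis) for each tested gene of the 5 lists, with 1 point per gene, red for a limma adjusted p under 0.05 and grey for other genes, and a black line at the median of the list. The 2-cell-like genes lie between 2.46 and 5.34, while the other medians lie between −0.05 and 0.38.

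The 5 germ cell markers summed to 692 to 803 in *Ctrl* and 641 to 729 in *Tet iTKO* mESC, with *Dmrt1* higher and *Dazl* lower by the test. The 5 primitive endoderm markers summed to 7 to 18 against 17 to 38. The 1 that was tested, *Gata4*, had 2, 7 and 10 against 21, 12 and 27 and was higher (limma adjusted p = 0.03). Its *Ctrl* mean was under 10, so it entered the test only through its *Tet iTKO* values, and the call is not support. *Gata6* went the other way (2, 0 and 5 against 1, 1 and 1), and *Sox17*, *Pdgfra* and *Dab2* did not, all too low to test. In the same order, the 4 trophoblast markers summed to 17 to 40 against 37 to 43. None of the markers was at 0 in all libraries, and their part in the values of the family was not tested.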

How the data were processed

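RNA was measured by Smart-Seq2 in 3 *Ctrl* and 3 *Tet iTKO* mESC lines. The authors aligned paired reads of 50 bases with STAR, kept unique alignments, counted them per gene with HTSeq 0.7.1 and normalized them with DESeq2 1.26.0 in R 3.5.2, and the submitters' notes name the build mm9. What the authors deposited is this normalized count after rounding, recorded here as a score, so no count model was used. The members, gene lists and tests were chosen with earlier results of these data known.

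Identifiers were paired with GENCODE M21 symbols (20775 of 22380) and, through Entrez numbers, with RefSeq symbols. Coordinates of genes are not given, because that annotation is of GRCm38 and not of mm9. The fit was limma's lmFit with trended eBayes (limma 3.58.1, R 4.3.3) on log2(value + 1). Genes needed a mean of 10 or more, p-values were two-sided and adjusted by Benjamini-Hochberg over all genes tested, and a call was an adjusted p under 0.05. Lower members were taken from the same fit without that filter. Sums and the ratio were compared with exact permutation tests in Python 3.11.15. The limma script was tested on simulated data. Alternatives were pseudocounts of 0.5 and 4, other filters and scalings, no trend, a replicate block, a loess correction (span 0.3) for GC content and transcript length, and each library left out. Alternatives to the fit without the filter and to the member list were added after seeing the data. Every member with a mean of at least 10 is named with its values, members above 3 in any library with their values, and from each list the 4 genes with the lowest adjusted p, with *Uhrf1*, *Dnmt1* and *Cul2*. *Zfp352*, *Tmem92*, *Sp110*, *Usp17ld*, *Tdpoz3*, *Tdpoz4*, *Fem1a*, *Zer1*, the marker genes and genes outside the rule were named after their values were seen. The libraries had no molecular identifiers, so reads are not independent molecules, and the floor of 3 and the intervals cover counting error only.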

Additional observations from a re-analysis of the deposited data

How the results depend on the processing

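With a mean of at least 10, 3 members could be tested at this depth, and with a mean of at least 50 only *Pramel12*, with 0 called higher. Without a filter, 7 were called higher. With 1 library left out, 1 to 2 members were called higher under the filter (2 without any of the *Ctrl* lines) and 3 to 5 without it, and 0 were called lower in any of these. The log2 difference of the family sum ranged from 0.58 to 0.89 when 1 library was left out, that of the sum without *Pramel12* from 2.57 to 2.86 and that of the *Pramel6* to *Pramel7* ratio from 0.57 to 1.68.

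Same-numbered lines came from different embryos, and their deviations were uncorrelated (r of −0.005 to 0.001), so the numbers do not pair them. The fit with the replicate block left the 1 call under the filter, while without the filter 4 members were called instead of 7, losing *Pramel6*, *Pramel31* and *Pramel45* (adjusted p = 0.081, 0.081 and 0.073). For the sums and the ratio, the replicate block gives the same differences of 0.72, 2.68 and 1.24 by construction, and its smallest exact p is 0.25. Without the trend, 4 members were called in the fit without the filter, and quantile normalization ended the calls of *Pramel31* and *Pramel45*. The log2 fold change of *Pramel12* ran from −0.35 (without *Tet iTKO* line 1) to 0.11, and its sign turned without *Ctrl* line 3 (0.06) or *Tet iTKO* line 2 (0.11). That of *Pramel1* turned from 0.05 under quantile normalization (−0.38) and without *Ctrl* line 2 (−0.14), *Tet iTKO* line 1 (−0.23) or *Tet iTKO* line 3 (−0.39). The cause was not tested. The correction for GC content and length changed the split over all genes from 1731 higher and 1934 lower to 1025 and 2007, and called no member differently.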

Other observations

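Genes beside the family that its symbols do not name were chosen after their values were seen. *Gm12800*, which shares its start with the RefSeq gene *Pramel18*, had 0, 0 and 1 in *Ctrl* against 6, 9 and 5 in *Tet iTKO* mESC. *C130073F10Rik*, which lies between *Pramel17* and *Pramel19* on chromosome 4, had 3, 1 and 7 against 19, 14 and 15. In the fit without a filter their limma adjusted p were 0.0064 and 0.034. *Gm13101*, a synonym of the pseudogene *Pramel28*, was listed at 0 in all 6 libraries. With *Gm12800* and *Gm13101* added, the family without *Pramel12* summed to 17, 18 and 27 in *Ctrl* against 142, 128 and 151 in *Tet iTKO* mESC.

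*Pdpn*, which lies outside the main chromosome 4 cluster on the side of *Pramel1*, had 320, 358 and 396 in *Ctrl* against 415, 350 and 362 in *Tet iTKO* mESC, and its log2 fold change of 0.07 ± 0.1 did not pass (limma adjusted p = 0.63). *Leprot*, which lies outside the smaller chromosome 4 group on the side of *Pramel17*, had 363, 357 and 298 against 254, 239 and 314 and fell by 0.34 on the log2 scale (limma adjusted p = 0.019).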
